A study of Mus musculus with 3 samples.

Results

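The genes described here are 9 regulators of GABAergic neurons that arise in the subpallium: Dlx1, Dlx2, Dlx5, Dlx6, the antisense RNA Dlx6os1, Lhx6, Sp8, Sp9 and Meis2. They were chosen by name, and all 9 had a row among the 32531 genes listed in each file. The RNA came from adult, untreated control mice of the transgenic line Lypd1-EGFP-L10a OI82, in which Lypd1 regulatory DNA drives an EGFP tag on the ribosomal protein L10a. The tissue was the cortex-amygdala transition zone, a strip where ventral cortex meets the amygdala. Tagged polysomes were pulled down with antibodies to EGFP, a method called translating ribosome affinity purification, and their RNA was sequenced. There was 1 group of 3 immunopurified libraries, called replicates 1, 2 and 3. The series' design text counts 3 mice, but no label ties a library to an animal, so spreads and p-values measure differences between libraries. Unpurified tissue RNA was not analysed here, and no value below is an enrichment over tissue. Tagged cells of every type that uses the transgene contribute, and fewer cells of a type cannot be told apart from less RNA per cell.

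In the embryonic forebrain, GABAergic neurons are born in the ganglionic eminences of the subpallium, and glutamatergic neurons of the cortex are born in the pallium. The Dlx genes encode homeodomain proteins that act there in sequence, with Dlx1 and Dlx2 first and Dlx5 and Dlx6 downstream of them. Lhx6, a LIM homeodomain protein, then specifies interneurons of the medial eminence, Sp8 and Sp9 are zinc finger proteins of the lateral and caudal eminences, and Meis2 is a homeodomain cofactor of the TALE class that is prominent in the lateral eminence. Several of these genes stay on at lower levels in mature GABAergic neurons, and Meis2 is also used by cells that are not GABAergic.

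Levels are CPM, the share of a library's gene counts that fell on a gene, scaled so that all genes sum to 1000000. Those totals were 18526251, 24690301 and 8668527 in replicates 1, 2 and 3, so replicate 3 is the least precise. A level of 3 counts, the most that a count of 0 allows, is 0.162, 0.122 and 0.346 CPM in these libraries. That limit and the 95% exact Poisson or Clopper-Pearson intervals below cover counting error, and not differences between animals. Detection here means that no library fell below 1 CPM, which 39.3% of all listed genes met. Lypd1, whose regulatory DNA marks the line, measured 232, 601 and 272 CPM in replicates 1, 2 and 3.

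The members share positions as well as roles. By the GENCODE M21 annotation of GRCm38, 5 of the 9 lie on chromosome 2, 3 on chromosome 6 and Sp8 alone on chromosome 12. Dlx1 (positions 71528113 to 71533981, plus strand) and Dlx2 (71543408 to 71546754, minus strand) point at each other on chromosome 2 across a gap of 9426 bases. Sp9 lies farther along the same chromosome (73271925 to 73284706, plus strand). Dlx6 (6863334 to 6868568, plus strand) and Dlx5 (6877805 to 6882085, minus strand) form the same kind of pair on chromosome 6, with 9236 bases between them. Dlx6os1 (6820189 to 6871592, minus strand) runs through the whole of Dlx6, but shares 0 exon bases with it. The strand setting of the counting was not given in the sources used here, so sense and antisense reads within an exon cannot be told apart. Of exons shared with other genes, 335 bases of Dlx1 lie in exons of the antisense RNA Dlx1as, which is 6.21% of its exons. For Dlx6 the shared part is 104 bases, or 4.38%, and lies in exons of Dlx6os2. Dlx6os1 shares the most, 491 bases or 9.49%, of which 387 overlap exons of the opposite strand. Sp9 shares 270 bases, or 5.35%, with Cir1 on the opposite strand, and Lhx6 104 bases, or 2.16%, on its own strand.

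**Figure D1:**
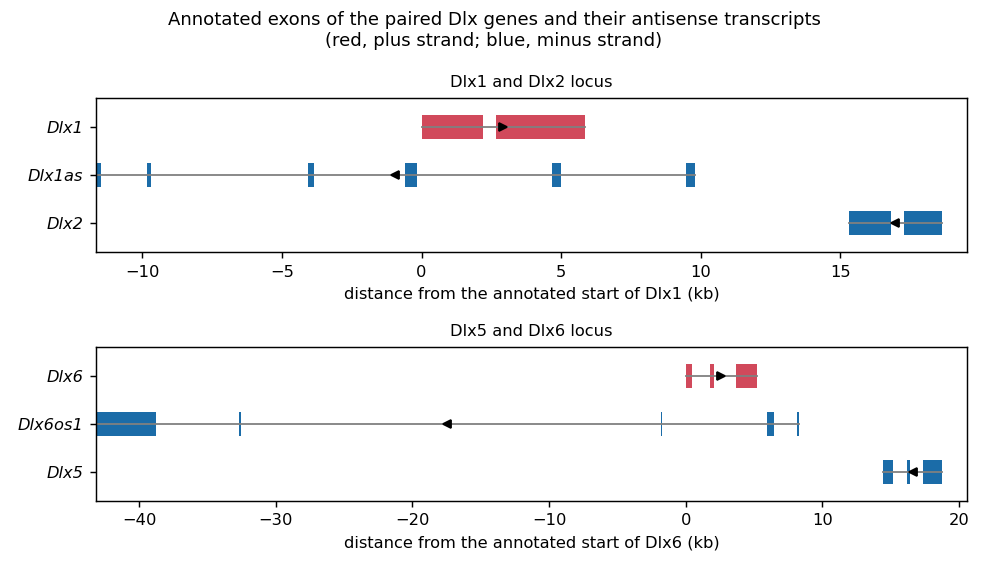
Exons (boxes) of the paired Dlx genes and of their antisense transcripts, drawn to scale against distance in kb from the annotated start of Dlx1 (top) or Dlx6 (bottom); arrowheads give the direction of transcription. Dlx6 sits inside the span of Dlx6os1 without a shared exon base, and exons of Dlx1as cover 335 bases of Dlx1.

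Start windows of 300 bases, 250 before and 50 after the annotated start, were taken from RefSeq (GRCm38.p6) and matched 7 of the 9 members by symbol, with 12 windows in all. They were searched on both strands for TAATTA, the core bound by Dlx and many other homeodomains, for TGACAG, the core bound by Meis proteins, and for GGGCGG, the GC box bound by Sp proteins. The Dlx1 and Dlx2 windows are shown because these neighbours differed in how evenly they were captured, and the Dlx6os1 windows because they are the ones of the Dlx5 and Dlx6 locus. Capitals mark a match to any of the 3 motifs.
Dlx1, chr2:71529195-71529494, plus strand: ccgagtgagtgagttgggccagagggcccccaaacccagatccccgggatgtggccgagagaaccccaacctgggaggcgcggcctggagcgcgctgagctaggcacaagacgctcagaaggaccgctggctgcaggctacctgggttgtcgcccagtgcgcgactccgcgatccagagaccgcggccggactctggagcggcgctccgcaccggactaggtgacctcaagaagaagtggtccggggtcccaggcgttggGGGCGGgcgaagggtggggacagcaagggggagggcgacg
Dlx2, chr2:71546705-71547004, minus strand: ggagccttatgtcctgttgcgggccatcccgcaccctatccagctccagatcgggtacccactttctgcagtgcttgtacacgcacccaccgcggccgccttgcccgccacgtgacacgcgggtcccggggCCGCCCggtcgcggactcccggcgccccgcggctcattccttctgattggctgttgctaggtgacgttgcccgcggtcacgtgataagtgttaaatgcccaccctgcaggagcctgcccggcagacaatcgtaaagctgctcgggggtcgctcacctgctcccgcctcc
Dlx6os1, chr6:6861634-6861933, minus strand: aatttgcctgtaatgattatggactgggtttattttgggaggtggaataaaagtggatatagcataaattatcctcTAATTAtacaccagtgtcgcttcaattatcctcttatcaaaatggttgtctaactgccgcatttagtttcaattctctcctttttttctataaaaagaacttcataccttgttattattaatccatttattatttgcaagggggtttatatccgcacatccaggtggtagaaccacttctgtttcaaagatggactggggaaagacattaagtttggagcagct
Dlx6os1, chr6:6869484-6869783, minus strand: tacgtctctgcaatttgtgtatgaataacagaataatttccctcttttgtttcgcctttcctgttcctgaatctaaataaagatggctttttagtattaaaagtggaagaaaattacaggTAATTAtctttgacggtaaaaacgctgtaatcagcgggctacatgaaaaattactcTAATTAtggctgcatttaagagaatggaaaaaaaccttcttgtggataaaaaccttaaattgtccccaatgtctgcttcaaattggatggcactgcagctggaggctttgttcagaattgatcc

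The Dlx1 and Dlx2 windows each held 1 GC box and no TAATTA, with 69.3% and 66.3% G and C bases. Both Dlx6os1 windows held TAATTA, 1 match in the first and 2 in the second, and were rich in A and T, with 35.3% and 35.7% G and C. TAATTA occurred in 5.29% of the 32851 windows of all genes, TGACAG in 19.2% and GGGCGG in 35.7%. Of the members' 12 windows, 3 held TAATTA (25%, from Dlx6os1 and Sp8), 2 held TGACAG (16.7%, from Lhx6 and Sp8) and 6 held a GC box (50%). Windows of 1 gene are not independent, and so few windows settle no difference from those shares. The matches do not overlap each other, and they describe the letters and not binding.

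Of the 9 members, 7 were detected in each library, against the 39.3% of all listed genes. Dlx6 and Sp8 fell short, and without replicate 1 the number was 8, with Dlx6. With 0.5 CPM as the threshold the number was also 7, and with 5 CPM it was 4 (Dlx1, Dlx6os1, Lhx6 and Meis2). Meis2 alone took 69.6%, 72.0% and 55.9% of the members' summed level in replicates 1, 2 and 3. The other 8 members together reached 80.6, 41.5 and 85.3 CPM, lowest in replicate 2.

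Dlx1, the first of the family to act with Dlx2 and a gene that mature interneurons keep, was the most evenly captured Dlx member. It measured 25.0, 19.8 and 30.2 CPM in replicates 1, 2 and 3, from 464, 488 and 262 counts. The highest library stood 1.53 times above the lowest, and the counting intervals of replicates 1 and 3 overlap. The interval of replicate 2, 18.0 to 21.6 CPM, lies below both, so Dlx1 also differed beyond counting error. These levels lay between the 45.1st and 54.0th percentile of detected genes, so near the middle. Dlx1as, transcribed against it, measured 9.61, 3.56 and 9.81 CPM, lowest in replicate 2.

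Dlx2, its partner across the gap, was far less even. It measured 11.1, 1.66 and 3.92 CPM in replicates 1, 2 and 3, from 205, 41 and 34 counts. Replicate 1 was the high library, with an interval of 9.60 to 12.7 CPM that overlaps neither of the others. Of the counts of the Dlx1 and Dlx2 pair, Dlx2 gave 30.6% (95% exact interval 27.2% to 34.3%) in replicate 1. The share was 7.75% (5.62% to 10.4%) in replicate 2 and 11.5% (8.09% to 15.7%) in replicate 3. Per length, Dlx2 was below Dlx1 in 3 of 3 libraries, by −1.08 ± 0.76 on the log2(CPM per kb + 1) scale (SD, n = 3, exact sign-flip permutation p = 0.25, adjusted p = 0.458).

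Dlx5, which Dlx1 and Dlx2 switch on in the mouse subpallium, followed the order of Dlx2. It measured 11.8, 3.93 and 7.61 CPM in replicates 1, 2 and 3, high in replicate 1 and low in replicate 2. Dlx6, next to it on the chromosome, ran in the other direction. It measured 0.270, 1.09 and 4.85 CPM from 5, 27 and 42 counts, lowest in replicate 1 and highest in replicate 3, and the 3 counting intervals do not overlap. Dlx6 gave 2.24% (0.732% to 5.15%) of the pair's counts in replicate 1. It gave 21.8% (14.9% to 30.1%) in replicate 2 and 38.9% (29.7% to 48.7%) in replicate 3. Per length, Dlx5 was above Dlx6 in 3 of 3 libraries, by 1.30 ± 1.04 (log2, SD, n = 3), with the same exact permutation p of 0.25 and adjusted p of 0.458.

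Dlx6os1, known as Evf2 in mouse, is a non-coding RNA transcribed through enhancers of the Dlx5 and Dlx6 locus that acts on the expression of both genes. It measured 7.02, 7.01 and 21.1 CPM in replicates 1, 2 and 3, high in replicate 3 and level in the other libraries. Its windows are those printed above, one before the start of Dlx6 and one between Dlx6 and Dlx5. Like Dlx6, it was highest in replicate 3, the library in which reads outside counted features made up 45.3% of all entries, against 31.4% and 25.6% in replicates 1 and 2. The part of those reads in these values was not tested.

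Lhx6, which directs the migration and the Pvalb or Sst fate of interneurons from the medial eminence, was lowest in replicate 2. It measured 21.4, 5.35 and 14.5 CPM in replicates 1, 2 and 3, from 396, 132 and 126 counts. The counting intervals of the 3 libraries do not overlap, and the highest stood 4.0 times above the lowest. Lhx8, the related LIM factor of cholinergic neurons from the same eminence, measured 34.9, 2.96 and 0.346 CPM. Lhx8 was called as varying between the libraries (edgeR goodness-of-fit test, adjusted p = 0.00455), and Lhx6 was not (adjusted p = 0.910). Chat, the enzyme that makes acetylcholine, was called too, with 28.6, 0.608 and 1.62 CPM (adjusted p = 0.0352).

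Sp8 and Sp9, close relatives that olfactory bulb interneurons need in mouse, were both scarce. Sp9 measured 3.40, 2.23 and 2.65 CPM in replicates 1, 2 and 3, within overlapping counting intervals. Sp8 measured 0.702, 0.446 and 0.346 CPM, from 13, 11 and 3 counts, and in replicate 3 it was at the level that a count of 0 allows. Sp9 was above Sp8 in 3 of 3 libraries, by 0.48 ± 0.08 on the log2(CPM per kb + 1) scale (SD, n = 3, exact permutation p = 0.25, adjusted p = 0.458). Of the 7 other Sp genes 4 were detected, led by the broadly used factors Sp3 at 66.4 ± 13.1 CPM and Sp1 at 64.7 ± 24.1 CPM (SD, n = 3).

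Meis2, which binds DNA with other homeodomain proteins and marks striatal and amygdalar populations in mouse, was the most abundant member. It measured 184, 107 and 108 CPM in replicates 1, 2 and 3, high in replicate 1 and level in the others. That placed it between the 84.7th and 92.3rd percentile of detected genes. Set against Gad2, a GABA-synthesizing enzyme, within each library, its counts were 38.6%, 33.5% and 39.8% of Gad2 counts. For Lhx6 the same ratio was 4.47%, 1.68% and 5.35%, and for Dlx6 it was 0.0564%, 0.344% and 1.78%. These ratios are not corrected for length, and Meis2 has 12043 exon bases against 4805 for Lhx6 and 2375 for Dlx6. Per kb, Meis2 stood at 15.3, 8.84 and 8.98 CPM in replicates 1, 2 and 3, and Gad2 at 81.4, 54.1 and 46.3. All 8 of the other TALE genes on the list were detected, among them Pknox2 at 108 ± 56.2 CPM. Of the 11 other LIM homeodomain genes 2 were detected, Lhx2 at 84.0 ± 28.9 CPM and Lhx9 at 25.8 ± 4.59 CPM, and both are known as pallial factors.

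**Figure D2:**
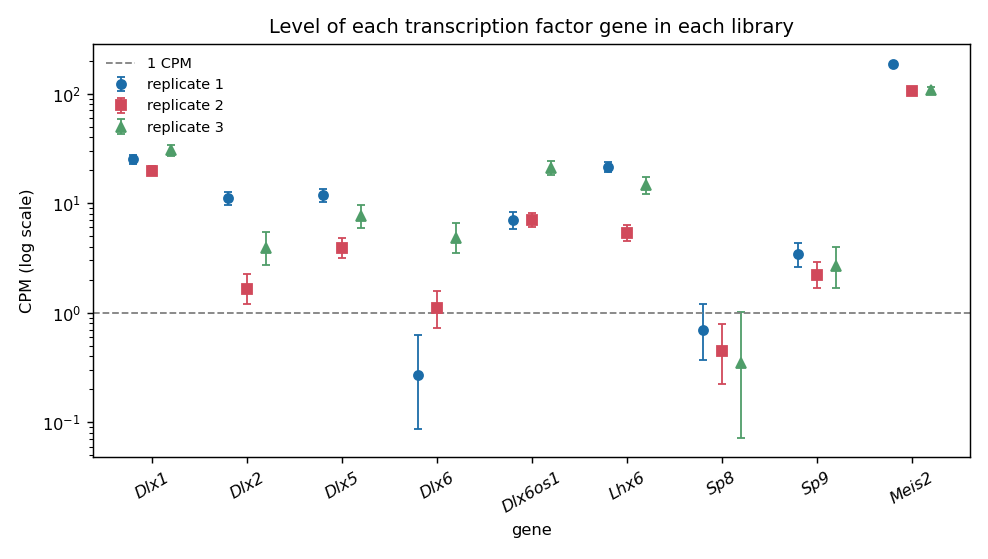
Level of each member in CPM (log axis) in replicates 1, 2 and 3; bars are 95% exact Poisson intervals and the dashed line is 1 CPM. Dlx1 and Sp9 lie close together across libraries, while Dlx2 is highest in replicate 1 (11.1 CPM) and Dlx6 in replicate 3 (4.85 CPM).

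Genes were set against each other per kb of annotated exons. The order by mean level was Meis2 (11.0 ± 3.70 CPM per kb), Dlx1 (4.64 ± 0.969), Dlx5 (3.43 ± 1.73) and Lhx6 (2.86 ± 1.67). Dlx6os1 (2.26 ± 1.57), Dlx2 (1.94 ± 1.72), Dlx6 (0.871 ± 1.03), Sp9 (0.547 ± 0.118) and Sp8 (0.109 ± 0.0403) followed (SD, n = 3 each). Of the 8 neighbouring steps in this order, 3 had the same sign in 3 of 3 libraries and a mean above its SD. These were Meis2 over Dlx1 (1.07 ± 0.47, log2), Dlx5 over Lhx6 (0.23 ± 0.13) and Sp9 over Sp8. The other 5 steps, Dlx1 over Dlx5 and those from Lhx6 down to Sp9, did not exceed their spread. Genes farther apart could still keep their order: Lhx6, Dlx6os1 and Dlx2 were each above Sp9, Lhx6 and Dlx6os1 above Dlx6, and Lhx6 above Dlx2, in 3 of 3 libraries. Of all 36 pairs of members, 29 had the same order in each library. The step of Dlx5 over Lhx6 turned round without length correction (−0.68 ± 0.27). Flipping the signs of 3 libraries (exact two-sided permutation test) cannot give a p below 0.25, and the smallest adjusted p over the 11 differences tested was 0.458.

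**Figure D3:**
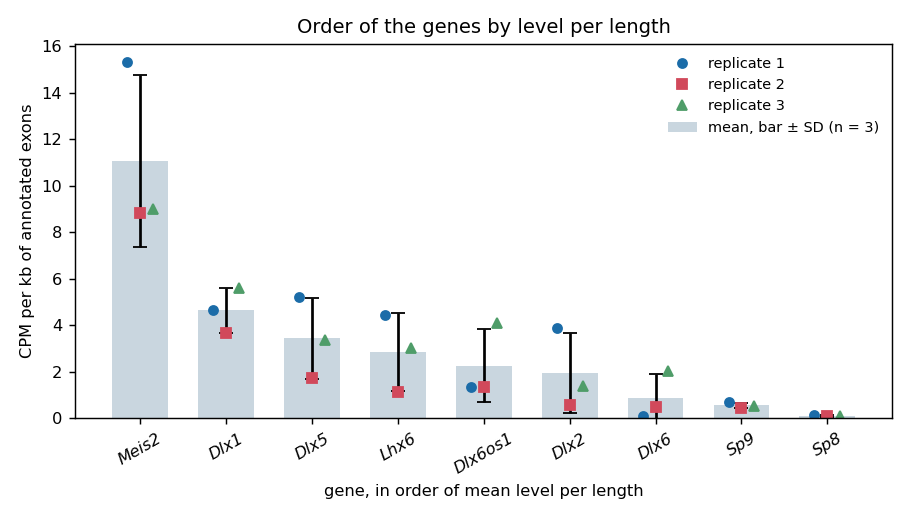
Level per length of each member, in CPM per kb of annotated exons, as the mean of 3 libraries (bar) with its SD and the value in each library (symbols). Meis2 stands at 11.0 CPM per kb, and the libraries of Lhx6, Dlx6os1, Dlx2 and Dlx6 overlap one another.

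No member was called as varying between the libraries. The test asked whether a gene spread more than genes of its level do. It called 32 of the 15336 genes whose mean reached 1 CPM, or 0.209%. Of the 9 members 8 passed that filter, all but Sp8, and 0 were called by edgeR's goodness-of-fit test, with 0 at an unadjusted p under 0.05 and 0 by DESeq2's dispersion outliers. Lhx6 had the smallest adjusted p, 0.910. At low levels the test tolerates wide spreads: the coefficient of variation that the fitted trend gives was 112% for Dlx6, 78.0% for Dlx2 and 32.5% for Meis2. The Dlx2 and Dlx6 differences between libraries given above exceed counting error, but not the spread of other genes at their level.

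Of the 8 members whose mean reached 1 CPM, 7 had their lowest CPM in replicate 2, where 37.8% of all such genes did. None had its highest there, against 29.2% of all genes. With TMM scaling, 5 were lowest in replicate 2 (34.1% of all genes), since Dlx6os1 was then lowest in replicate 1 and Meis2 in replicate 3, and again none was highest there (33.6%). The members are not independent of each other here, since some share a locus.

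The same count was made for the lists, beside the 37.8% of all genes lowest in replicate 2, or 34.1% with TMM scaling. All 5 genes of GABA synthesis and transport were detected, and 4 of them were lowest in replicate 2, or 2 with TMM scaling. Gad2 was the exception, with 478, 318 and 272 CPM in replicates 1, 2 and 3 and its lowest level in replicate 3. Of the 6 further factors of the medial eminence lineage 4 were detected, and 5 were lowest in replicate 2 under either scaling. Satb1, which acts in Sst interneurons, measured 59.4 ± 6.12 CPM (SD, n = 3). Of the 10 genes listed as downstream of Dlx or Lhx6, 9 were detected, and 7 of the 9 tested were lowest in replicate 2, or 6 with TMM scaling. None of these lists had a member called as varying, apart from Lhx8. Lists not chosen for GABAergic neurons held such genes too. The lowest level was in replicate 2 for 6 of the 8 other TALE genes under either scaling, for 4 of 6 astrocyte markers, or 2 with TMM scaling, and for 3 of 5 tested oligodendrocyte markers under either.

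For factors of the other eminences the counts were nearer the share of all genes or below it. Of the 4 caudal eminence factors 3 were detected, among them Nr2f2 at 158 ± 27.4 CPM and Prox1 at 39.2 ± 11.3 CPM, and 1 was lowest in replicate 2, or 0 with TMM scaling. Of the 12 lateral eminence factors 11 were detected, with the striatal and deep-layer factor Bcl11b at 144 ± 43.6 CPM and Zfhx3 at 85.8 ± 23.0 CPM, and 4 were lowest in replicate 2 under either scaling. Zfhx3 was one of them, with 104, 60.0 and 93.1 CPM in replicates 1, 2 and 3. The lists were not tested against each other. Many of these genes are also used by glutamatergic neurons or glia.

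Of the 9 pallial factors on the list, 8 were detected. Under either scaling 6 of the 9 had their highest level in replicate 2, against 29.2% of all genes, or 33.6% with TMM scaling. Another 2 of the 9 had their lowest level there under either scaling. A high in replicate 2 was not particular to pallial factors, since 4 of 5 endothelial markers were also highest there under either scaling. Neurod2, which matures glutamatergic neurons, measured 44.5, 167 and 112 CPM in replicates 1, 2 and 3, and Tbr1, a factor of early-born cortical and amygdalar projection neurons, 55.3, 110 and 76.1 CPM. Per length, the 9 members had a median of 3.88 CPM per kb in replicate 1, 1.11 in replicate 2 and 3.03 in replicate 3. The median of the 9 pallial factors was 4.26, 6.11 and 6.18 CPM per kb, and that of detected genes 5.80, 5.49 and 6.13. The members' median was thus below both in each library, and the distance was widest in replicate 2. The median of detected genes leaves out every gene that fell below 1 CPM in a library. The 9 members include Dlx6 and Sp8, which were not detected, so these 2 sets are unlike and the members' side can only be lower for it. The pallial median takes all 9 listed factors, detected or not.

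Markers of other cell types also moved between the libraries, and their part in these values was not tested. The summed level of the 6 cholinergic markers was 50.2, 1.90 and 2.77 CPM in replicates 1, 2 and 3, with 0 of 6 detected in each library and Gbx1 at 0 in all. Replicate 1 is also the library in which Dlx2, Dlx5, Lhx6, Sp9 and Meis2 were highest. The 6 astrocyte markers, all detected, summed to 1748, 1135 and 1163 CPM. The 6 oligodendrocyte markers, 5 of them detected, summed to 313, 198 and 194 CPM. The 6 microglia markers, 2 of them detected, summed to 33.8, 17.4 and 20.1 CPM. The 5 endothelial markers, 3 of them detected, summed to 33.3, 48.4 and 20.5 CPM. Apart from the endothelial sum, all were highest in replicate 1. The microglia sum owed this to Cx3cr1, which reached 19.8 CPM there but 0.486 (replicate 2) and 2.88 (replicate 3) elsewhere. Both detected microglia markers peaked in another library, Aif1 in replicate 2 with 10.5 CPM and Csf1r in replicate 3 with 10.7 CPM.

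**Figure D4:**
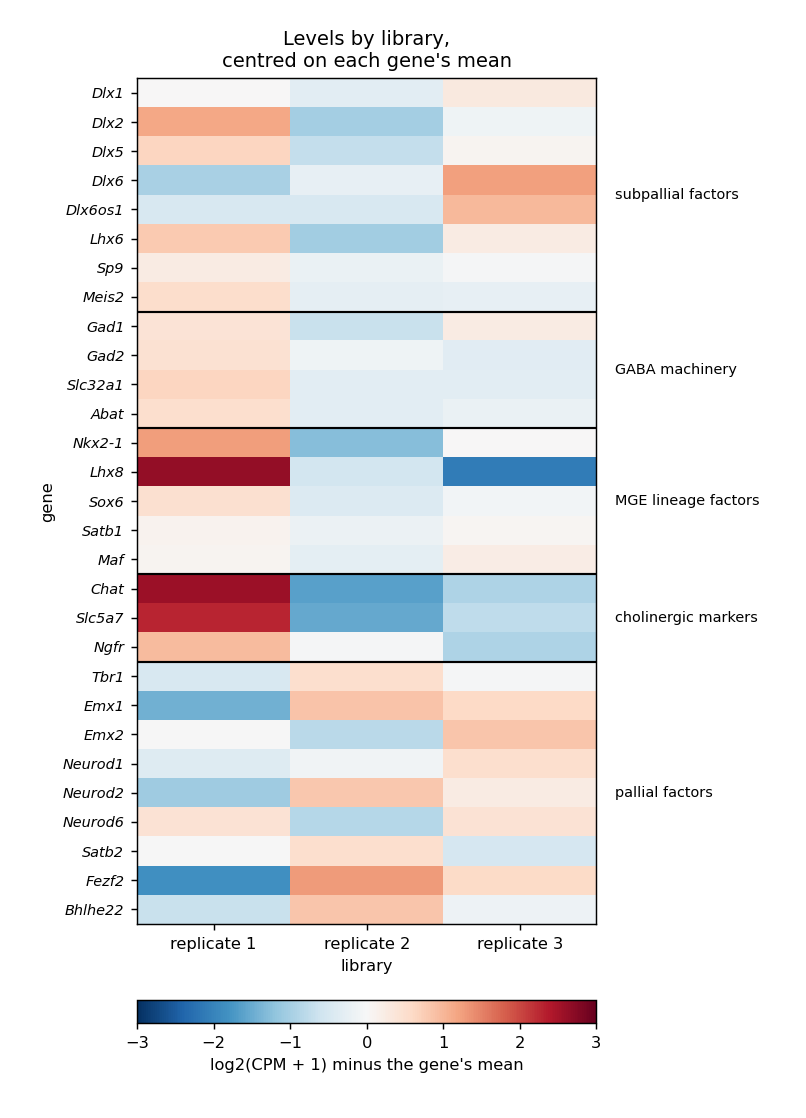
Levels in replicates 1, 2 and 3 as log2(CPM + 1) minus each gene's mean, for members and genes of 4 lists whose mean reached 1 CPM; red is above and blue below the gene's mean. The subpallial factors and the GABA genes are mostly blue in replicate 2, where 6 of the 9 pallial factors are at their highest and 2 at their lowest. Dlx6 and Dlx6os1 are red in replicate 3.

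The mean pattern of the 9 members over the libraries was 0.23, −0.48 and 0.25 on the centred log2(CPM + 1) scale. Among 11744 other genes whose mean reached 5 CPM, the 3 nearest to it by root mean square difference over the 3 libraries were Nav2 (0.011), Zdbf2 (0.013) and Adgrl2 (0.013). Nav2 measured 370, 221 and 374 CPM in replicates 1, 2 and 3. Within 0.1 of the pattern lay 272 genes, or 2.32%, so 3 libraries narrow the choice little, and 1 of the 3 nearest was among the nearest 3 with TMM scaling. From the lists, Zfhx3 (0.074) and Pbx4 (0.086) lay within that distance.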

How the data were processed

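RNA from immunopurified polysomes was sequenced in 3 libraries of 1 group. Each deposited file gives raw counts, whole numbers of reads for every gene of a library. The submitters' processing notes name STAR 2.0.0e, the mm10 genome and HTSeq. Neither the annotation nor the strand setting was given in the sources used here. Reads that aligned to more than 1 place or to overlapping genes were left out of gene counts by the summary classes that the files list: 16.5% to 32.7% and 1.26% to 1.98% of entries. The 5 summary classes and a row named unknown, which holds 0 counts, were kept out of totals and tests.

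CPM was computed with the total of all gene counts. Lengths are the union of exons in GENCODE M21, which annotates the assembly mm10 names. Variation between libraries was tested with edgeR 4.0.16 (R 4.3.3) on all genes whose mean reached 1 CPM: TMM scaling, intercept-only model, trended dispersion, chi-square goodness-of-fit p in the upper tail with 2 degrees of freedom, Benjamini-Hochberg threshold 0.05. The script was tested on simulated data. DESeq2 1.42.0 gave size factors and dispersion outliers as alternatives. Differences between members used log2(CPM per kb + 1) within a library. The added 1 narrows differences that involve levels near or below 1 CPM per kb. With 0.1 in its place Dlx5 minus Dlx6 was 2.35 ± 2.04, against 1.30 ± 1.04 (SD, n = 3). Other steps used Python 3.11.15, pandas 2.3.3, numpy 2.4.6, SciPy 1.17.1 and matplotlib 3.10.9.

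The members and the 17 gene lists were chosen with earlier results of these data known. Named genes are the members, the 2 most abundant genes of each list, list genes called as varying and the 3 genes nearest in pattern; Dlx1as, Gbx1, Zfhx3 and Pbx4, and list genes named as detected or at 0, were added after their values were seen. A few list genes are counted but not reported by name.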

Additional observations from a re-analysis of the deposited data

How the results depend on the processing

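The number of members called as varying was 0 under every alternative run: DESeq2 size factors, no filter, a filter at a mean of 5 CPM, a common dispersion, DESeq2's dispersion outliers and each replicate left out. At an unadjusted p under 0.05 there was 1, with a common dispersion. The number of all genes called was 780 with a common dispersion, 21 as DESeq2's outliers and 5 to 22 with 1 replicate left out, against 32; the cause was not tested, but leaving out a library leaves 1 degree of freedom. Detected members numbered 4 with a threshold of 5 CPM. Leaving out replicate 3 moved the mean of Dlx6 to 0.682 CPM, against 2.07 CPM, and of Dlx6os1 to 7.01 CPM, against 11.7 CPM, and leaving out replicate 1 moved that of Dlx2 to 2.79 CPM, against 5.55 CPM. Members lowest in replicate 2, counted under alternatives chosen after seeing the data, numbered 5 or 7 when all libraries were kept. They numbered 8 without replicate 1 and 7 without replicate 3. Leaving out a library makes a lowest level in replicate 2 more likely for any gene, and the matching share of all genes is not given here. Of 66 alternatives for differences between members, 7 turned the direction. Without length correction Dlx5 minus Lhx6 was −0.68 and Dlx6 minus Sp9 −0.58, and with a pseudocount of 0.1 the second pair gave −0.012. Leaving out 1 library gave Lhx6 minus Dlx6os1 as −0.25 to 0.53, Dlx6os1 minus Dlx2 as −0.24 to 0.84, Dlx2 minus Dlx6 as −0.12 to 1.12 and Dlx6 minus Sp9 as −0.28 to 0.51. No paired analysis was possible because there is 1 group. Depth limits Sp8, with 3 to 13 counts a library, and Dlx6 in replicate 1, with 5.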

Other observations

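Genes of immature neurons were present in the same RNA. Of 6 markers 5 were detected, with Sox11, a factor of differentiating neurons, at 233, 87.0 and 137 CPM in replicates 1, 2 and 3. Dcx, a microtubule protein of migrating neurons, measured 53.9, 41.5 and 53.4 CPM, while Igfbpl1 measured 0, 0.689 and 0.231 CPM. None was called as varying by edgeR's goodness-of-fit test. Of the 5 tested, 4 were lowest in replicate 2 under either scaling, against 37.8% of all genes, or 34.1% with TMM scaling. The difference from those shares was not tested.

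Gsx2, which precedes the Dlx genes in the lateral eminence, had 1, 1 and 0 counts in replicates 1, 2 and 3, and Vax1 had 17, 0 and 0. Of the Dlx genes outside the forebrain set, Dlx3 had 0 counts in each library and Dlx4 had 0, 9 and 0.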
